A study of Homo sapiens with 8 samples.

Results

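The complement component and regulator genes described here are 10 genes, C1QA, C1QB, C1QC, C2, C3, CFB, CFP, CFD, SERPING1 and CD55, found by symbol among the 30233 Ensembl genes of the expression table. All 10 had a row, and 3 of them (C3, SERPING1 and CD55) cleared the filter on low values, 0.5 FPKM or more in 4 or more libraries. FPKM is the number of fragments per kilobase of gene, scaled to the library total. RNA-seq was run on 8 libraries of THP-1, a human monocytic leukaemia line labelled as wild type. All cells were turned into macrophage-like cells over 24 h in PMA (100 ng/ml), a phorbol ester, and rested for a further 24 h in PMA-free medium. The LPS + 3-HPA group (4 libraries) received 100 ng/ml LPS, the bacterial outer-membrane lipid that activates macrophages, and 5 mM 3-hydroxypropionic acid (3-HPA), a small organic acid, in the same step. The LPS group (4 libraries) received 100 ng/ml LPS without 3-HPA. The series description calls the 3-HPA a pretreatment, whereas the treatment protocol describes simultaneous addition. The series has no unstimulated cells and no cells given 3-HPA alone, so each difference lies between LPS-stimulated states. The labels do not say that replicates were separate cultures, so the spread behind each p-value may be technical.

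Complement is a cascade of plasma proteins that tags microbes and dying cells. It starts when C1q binds antibody or a surface (classical route), when lectins bind sugars, or by slow self-activation of C3 (alternative route), and all routes meet at the C3 convertases, enzymes that cleave C3. Macrophages are a main source of C1q and make C3, factor B and properdin locally, while the liver supplies most of the plasma pool. Inhibitors such as C1 inhibitor in the fluid phase and CD55 on cell membranes hold the cascade in check.

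With 3-HPA, the transcripts of both inhibitors among the 10 genes were lower: SERPING1 by 33.0% and CD55 by 26.0% in mean FPKM. C3 was lower by 5.78%, a difference whose call ended under 1 other scaling of the libraries. The C1q genes C1QB and C1QC had mean levels 2.03 and 1.54 times as high with 3-HPA, at levels too low for the filter, and neither passed the test when the filter was removed. Counted reads of C2, CFB, CFP, CFD and C1QA were scarce or nearly absent in both groups. In the fit across all genes (limma, two-sided, Benjamini-Hochberg adjustment) 3 of 3 tested members were lower at an adjusted p under 0.05, and their groups did not overlap. Of all 12499 genes tested, 43.7% passed in either direction, 28.0% downward, and 42.2% had groups that did not overlap (26.9% lower and 15.3% higher with 3-HPA).

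The libraries held 35647756 to 41859879 reads, a depth recovered from the FPKM values. Of the 11 macrophage and monocyte markers checked, 9 passed the filter, among them CD14, CSF1R and SPI1, while CD68 stayed at 2 to 11 reads per library and AIF1 at 0 in 7 of 8 libraries. Whether reads of CD68 and AIF1 went uncounted was not tested, so these values do not show that the genes are silent. The summed level of the 11 markers was 1288 to 1333 FPKM with 3-HPA and 1015 to 1043 FPKM with LPS alone. The markers did not move together. CD14, CSF1R, SPI1, TYROBP and ITGAM (5 markers) were higher, and LYZ did not pass. CD163 (-0.339), MSR1 (-0.301) and FCGR1A (-0.186) were lower (3 markers). Among all genes tested, 15.7% were higher and 28.0% lower. The largest differences in FPKM were in CSF1R (401 against 286 with LPS alone) and CD14 (228 against 133). None of the 4 T cell markers has a row; of the 8 hepatocyte markers, the cell type that makes most plasma complement, 6 have one, with a summed level of 1.57 to 2.48 FPKM with 3-HPA and 1.24 to 1.67 FPKM with LPS alone. Of the other types, B cell markers summed to at most 0.497 FPKM and epithelial markers to at most 0.00923 FPKM in any library. PECAM1 (8.11 and 4.00 FPKM with 3-HPA and with LPS alone), also made by monocytes, gave nearly all of the endothelial sum, and COL1A1 (3.84 and 2.08 FPKM) nearly all of the fibroblast sum. Neutrophil markers summed to 1.39 to 1.75 FPKM with 3-HPA and 2.12 to 5.06 FPKM with LPS alone. The highest of these came from ELANE in LPS library 3 (3.34 FPKM, against 0.302 to 0.354 FPKM in the other LPS libraries), and without that library the LPS sums were 2.12 to 2.30 FPKM. The part of these marker differences in the complement results was not tested, and in bulk RNA fewer cells of a kind and less RNA per cell cannot be told apart.

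SERPING1 encodes C1 inhibitor, the serpin that inactivates C1r, C1s and the lectin-route proteases and that also restrains kallikrein and factor XIIa. The gene (ENSG00000149131) lies on the plus strand of chromosome 11, 57597387 to 57614853 (GRCh38, as are all gene positions here, from GENCODE 29). SERPING1 was at 27.1, 27.1, 27.1 and 26.8 FPKM in LPS + 3-HPA libraries 1 to 4, against 41.7, 40.8, 40.9 and 38.0 FPKM in LPS libraries 1 to 4. Every LPS + 3-HPA library lay below every LPS library, and the spread within the 3-HPA group was the narrower one. The means were 27.0 ± 0.123 FPKM with 3-HPA and 40.3 ± 1.63 FPKM with LPS alone (SD, n = 4 each). The log2 fold change, on the log2(FPKM + 1) scale used throughout, was -0.56 (SE 0.028, 95% interval -0.624 to -0.497, limma adjusted p = 4.86e-07). Of all tested genes, 2.68% had a change as low as this or lower. In these cells C1 inhibitor is one of the more abundant transcripts, ranked 1475 of 30233 genes by mean FPKM with 3-HPA and 983 with LPS alone.

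CD55, or decay-accelerating factor, is a membrane-anchored protein that dissociates the C3 and C5 convertases on the cell's own surface. The gene (ENSG00000196352) spans 207321376 to 207386804 on the plus strand of chromosome 1. CD55 was at 6.12, 6.39, 6.78 and 6.71 FPKM in LPS + 3-HPA libraries 1 to 4, against 8.55, 8.75, 8.94 and 8.90 FPKM in LPS libraries 1 to 4. The groups were clearly apart, with the highest 3-HPA library below the lowest LPS library. The mean was 6.50 ± 0.306 FPKM with 3-HPA and 8.78 ± 0.174 FPKM with LPS alone (SD, n = 4 each), and the log2 fold change was -0.385 (SE 0.035, 95% interval -0.464 to -0.305, limma adjusted p = 2.39e-05). A share of 6.46% of tested genes had a change as low or lower.

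C3 is the central component, cleaved to C3b, which coats targets, and to the anaphylatoxin C3a. The gene (ENSG00000125730) lies on the minus strand of chromosome 19, 6677704 to 6730562. C3 was at 32.2, 30.9, 32.9 and 31.1 FPKM in LPS + 3-HPA libraries 1 to 4, against 33.2, 34.0, 34.1 and 33.7 FPKM in LPS libraries 1 to 4. The groups did not overlap, but the gap between the highest 3-HPA library and the lowest LPS library was small beside the spread with 3-HPA. Means were 31.8 ± 0.950 FPKM with 3-HPA and 33.7 ± 0.386 FPKM with LPS alone (SD, n = 4 each), a log2 fold change of -0.084 (SE 0.023, 95% interval -0.137 to -0.031, limma adjusted p = 0.0178). The median change of all tested genes was -0.047, and 42.1% of tested genes were as low as C3 or lower. After library scaling by TMM (trimmed mean of M values), which brought that median to -0.001 and at which 41.0% of genes passed (20.0% downward), the change of C3 was -0.022 (limma adjusted p = 0.499), while SERPING1 (-0.498) and CD55 (-0.328) still passed.

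**Figure D1:**
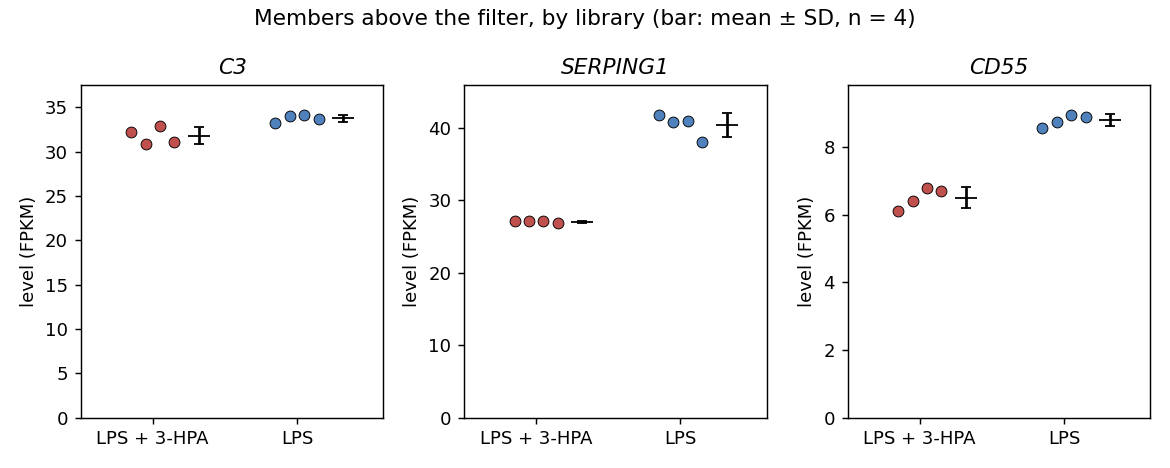
Level of C3, SERPING1 and CD55 in FPKM (y axis, from 0) in the 4 LPS + 3-HPA and the 4 LPS libraries; points are libraries and bars are the mean ± SD. SERPING1 and CD55 sit apart between the groups (means 27.0 against 40.3 and 6.50 against 8.78 FPKM), while the C3 values nearly meet (31.8 against 33.7 FPKM).

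The C1q chains are encoded side by side. C1QA (ENSG00000173372; 22636506 to 22639608), C1QC (ENSG00000159189; 22643630 to 22648110) and C1QB (ENSG00000173369; 22652762 to 22661538) share the plus strand of chromosome 1 within 25.0 kb, and their products assemble together into the recognition protein that starts the classical route. Almost no reads were counted for the A chain gene: C1QA had 0 reads in each LPS + 3-HPA library and 1 read in LPS library 1 alone. Whether reads of C1QA went uncounted was not tested, so these values do not show that the gene is silent. A count of 0 allows up to 3 reads per library, or 0.0548 to 0.0644 FPKM, for counting error only.

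C1QB was at 0.366, 0.681, 0.446 and 0.519 FPKM (32, 64, 37 and 45 reads) in LPS + 3-HPA libraries 1 to 4, against 0.298, 0.396, 0.101 and 0.195 FPKM (26, 38, 9 and 19 reads) in LPS libraries 1 to 4. LPS library 2 was above LPS + 3-HPA library 1, so the groups overlapped. The means were 0.503 ± 0.134 and 0.247 ± 0.128 FPKM (SD, n = 4 each) with 3-HPA and with LPS alone. C1QC was at 0.521, 0.400, 0.663 and 0.772 FPKM in LPS + 3-HPA libraries, against 0.415, 0.377, 0.389 and 0.344 FPKM in LPS libraries, and again 1 library of each group crossed. Its means were 0.589 ± 0.163 and 0.381 ± 0.0293 FPKM (SD, n = 4 each) with 3-HPA and with LPS alone. Without the filter, limma gave C1QB a change of 0.27 (SE 0.094, unadjusted p = 0.0208, adjusted p = 0.103) and C1QC a change of 0.20 (SE 0.080, unadjusted p = 0.04, adjusted p = 0.167); 16.0% of the 30233 genes passed there, 10.2% downward. Limma voom on the recovered reads without the filter, where 17.8% of genes passed (11.4% downward), gave C1QB a change of 1.14 (95% interval 0.276 to 2.003, adjusted p = 0.0737) and C1QC a change of 0.57 (95% interval -0.012 to 1.155, adjusted p = 0.194). Together the B and C chains held 66 to 95 reads in LPS + 3-HPA libraries and 35 to 65 reads in LPS libraries. In each library more genes held 2 reads than 1, a pattern that arises where both mates of a read pair are counted, and these counts may then overstate the number of independent fragments.

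Reads were few, at most 34 in any library, for C2, CFB, CFD and CFP, whose products make up or serve the C3 convertases. C2, the protease of the classical convertase (ENSG00000166278; chromosome 6, 31897785 to 31945672), had 13 to 25 reads per library with 3-HPA and 17 to 29 with LPS alone. CFB, the protease of the alternative convertase (ENSG00000243649; chromosome 6, 31945650 to 31952084), had 1 to 4 reads with 3-HPA and 0 to 4 with LPS alone. CFD, the protease that cleaves factor B (ENSG00000197766; chromosome 19, 859643 to 863630), had 7 to 34 reads with 3-HPA and 14 to 26 with LPS alone. CFP, the properdin gene (ENSG00000126759; chromosome X, 47623172 to 47630305, minus strand), whose product stabilises that convertase, had 24 to 31 reads with 3-HPA and 17 to 34 with LPS alone. The groups overlapped in all of these genes, and without the filter their limma adjusted p ran from 0.631 (CFP) to 0.905 (CFD), with 0.704 for C2 and 0.761 for CFB; C1QA gave 0.708. C2 and CFB adjoin in the MHC region and both share exon sequence with another annotated gene on the same strand, over 32.9% of the C2 and 45.0% of the CFB exon bases. Reads in such shared exons can go uncounted, so the low counts of C2 and CFB do not show that the genes are silent; the size of that loss was not tested.

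**Figure D2:**
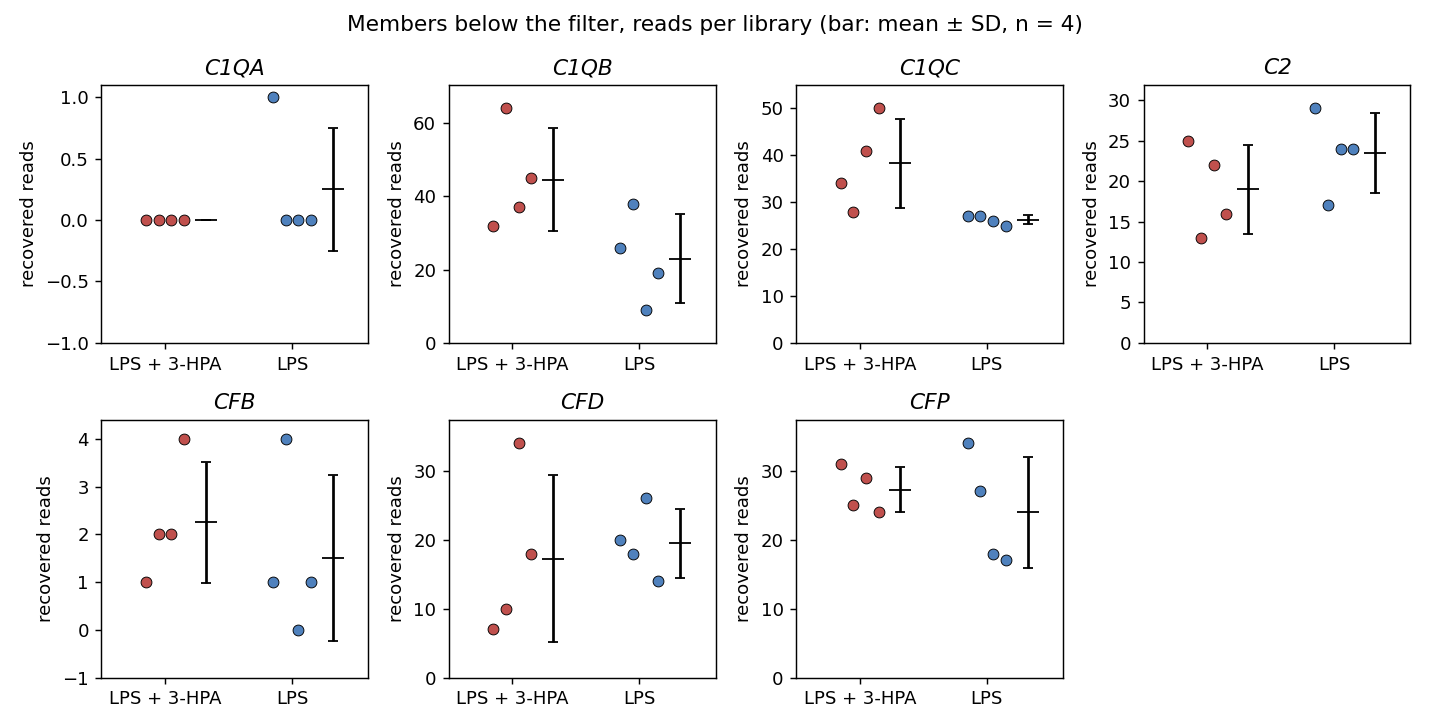
Reads per library (y axis, recovered from FPKM) of the 7 members below the filter, with the 4 LPS + 3-HPA libraries left of the 4 LPS libraries; bars are the mean ± SD. C1QB and C1QC are mostly higher with 3-HPA (178 against 92 and 153 against 105 reads over 4 libraries), while the other 5 overlap throughout.

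Start-site sequences from RefSeq (GRCh38.p14) were at hand for 7 of the 10 members. In the 250 bases before each start, 5 motifs were searched for on both strands, namely the interferon-stimulated response element core (GAAA and GAAA with NN between them, in 3.02% of 35116 promoters), the gamma-activated site TTCNNNGAA (6.57%), an NF-kB site (GGGA and TTCC with NN between them, 1.40%), a C/EBP site TTGCNNAA (9.05%) and the PU.1 core GAGGAA (23.6%). CD55, the called member among the 7, held none of the 5 in the bases searched, and neither did C2 or CFD. For C1QB, CFB and CD55, the 250 bases searched lie before the RefSeq start but inside the gene positions given above. The bases before those gene positions were not searched for these genes, so the absence of matches for CD55 covers the RefSeq start only. The CFP matches also lie inside its gene position. C/EBP matches lay before C1QA and C1QB, and PU.1 matches before CFP. The matches to the first 3 motifs are shown in 30 bases each, 5′ to 3′ on the gene's strand with the match in capitals, because they set the scarcely detected CFB and C1QA beside C1QB, the member with the highest ratio between the groups. The windows are chr1:22653200-22653229 for C1QB, chr6:31945945-31945974 and chr6:31945993-31946022 for CFB, and chr1:22636387-22636416 for C1QA, all on the plus strand.
C1QB NF-kB: ctctggggaaGGGAACTTCCgcttcggacc
CFB interferon-stimulated response element: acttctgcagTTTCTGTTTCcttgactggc
CFB gamma-activated site: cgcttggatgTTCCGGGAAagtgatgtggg
C1QA gamma-activated site: gcttcgctggTTCTCAGAAcctcaccctgc
The C1QB match ends 17 bases before the RefSeq start. CFB, with matches to both interferon motifs, had at most 4 reads in any library, and C1QA, with the gamma-activated match, had 1 read in all. A match is a description of letters and does not show that a factor bound.

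In order of level per length with 3-HPA, C3 (31.8 FPKM) stood above SERPING1 (27.0) and CD55 (6.50), and then came C1QC, C1QB, CFD, CFP, C2, CFB and C1QA, all under 0.6 FPKM on average. With LPS alone the order began with SERPING1 (40.3 FPKM), C3 (33.7) and CD55 (8.78), followed by C1QC, CFD, C1QB, CFP, C2, CFB and C1QA. C1QC, C1QB and CFD overlapped one another in both groups. CFP overlapped CFD with 3-HPA and C2 with LPS alone, and CFB and C1QA were near the floor. The exchange of places between C3 and SERPING1 rests on the gene lengths behind the deposited values. The lengths that make the reads whole were 7231 bases for SERPING1, 11577 for C3 and 10254 for CD55, against exon unions of 3603, 8328 and 5908 bases in GENCODE 29. Per GENCODE 29 length, SERPING1 would be the higher in both groups, at 1.19 to 1.27 times C3 with 3-HPA and 1.63 to 1.81 times with LPS alone. The 3 expressed members made up 97.3 to 98.1% of the summed FPKM of the 10 genes with 3-HPA and 98.5 to 98.9% with LPS alone, and that sum was 65.7 to 68.6 FPKM with 3-HPA and 81.5 to 84.9 FPKM with LPS alone.

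By the nearest profile over the 8 libraries (root mean square distance of centred log2(FPKM + 1) among 10388 genes with a mean of at least 1 FPKM), the genes most like SERPING1 were YEATS2 (distance 0.018), TENT5A (0.030) and SETDB2 (0.034), against a median distance of 0.272. TENT5A also stood at a similar level, with 26.9 ± 0.356 FPKM with 3-HPA and 40.2 ± 0.749 FPKM with LPS alone (SD, n = 4 each). The distance uses the same libraries as the change itself, so it is a description of likeness and no test.

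Of 47 other complement genes listed by role, 35 had a row and 16 passed the filter: 8 were higher, 2 lower and 6 did not pass, beside 15.7% higher and 28.0% lower among all genes tested. The 16 had a median change of 0.163, against -0.047 for all tested genes. The genes that begin the classical and lectin routes were mostly low, with 3 of 13 above the filter and none passing. C1S, the protease of the C1 complex and a target of C1 inhibitor, averaged 6.42 ± 0.109 FPKM with 3-HPA and 6.68 ± 0.135 FPKM with LPS alone (-0.05, 95% interval -0.111 to 0.012, limma adjusted p = 0.175). It passed downward with equal FPKM totals (-0.082, limma adjusted p = 0.0394). C1R, its partner protease, lay below the filter and was uneven, at 0.504, 0.444, 0.464 and 0.0786 FPKM with 3-HPA, against 0.0919, 0.580, 0.627 and 0.136 FPKM with LPS alone. Within each group its libraries fell into high and low ones. The low-level gene C4A, for the other convertase precursor of the classical route and named after its values were seen, had 8 to 26 reads per library with 3-HPA and 43 to 66 with LPS alone; it passed only in fits that included low genes (without the filter -0.14, limma adjusted p = 0.0212). C4B, also named after its values were seen, had 8 to 50 reads with 3-HPA and 34 to 46 with LPS alone. Its groups overlapped, and it did not pass without the filter in limma (adjusted p = 0.463) or voom (adjusted p = 0.313). C4A and C4B are near-identical copies, so the assignment of their reads is uncertain.

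Among the late components only C8G, a subunit of the membrane attack complex, passed the filter, and it did not pass the test (0.15, limma adjusted p = 0.232). C9, the pore-forming subunit, named after its values were seen, had 2, 2, 12 and 3 reads with 3-HPA, against 0, 2, 0 and 0 reads with LPS alone. It passed upward in voom on those reads without the filter (2.50, adjusted p = 0.0442) and not in limma on FPKM without the filter (adjusted p = 0.325). Of 16 regulators, CD59 and CD46 were above the filter. CD59 encodes protectin, which blocks the membrane attack complex, and was at 5.51, 5.63, 5.09 and 5.21 FPKM with 3-HPA, against 3.92, 3.84, 4.04 and 3.70 FPKM with LPS alone. All 3-HPA libraries lay above all LPS libraries (0.38, SE 0.040, limma adjusted p = 6.03e-05). CD46, or membrane cofactor protein, which assists in the breakdown of C3b, averaged 6.67 ± 0.222 and 6.61 ± 0.379 FPKM (SD, n = 4 each) with 3-HPA and with LPS alone (0.01, 95% interval -0.082 to 0.105, limma adjusted p = 0.841). The 3 membrane regulators of the cell's own surface therefore differed in direction, with CD55 lower, CD59 higher and CD46 not passing. The ratio of CD55 to CD59 in FPKM was 1.11 to 1.33 with 3-HPA and 2.18 to 2.40 with LPS alone.

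**Figure D3:**
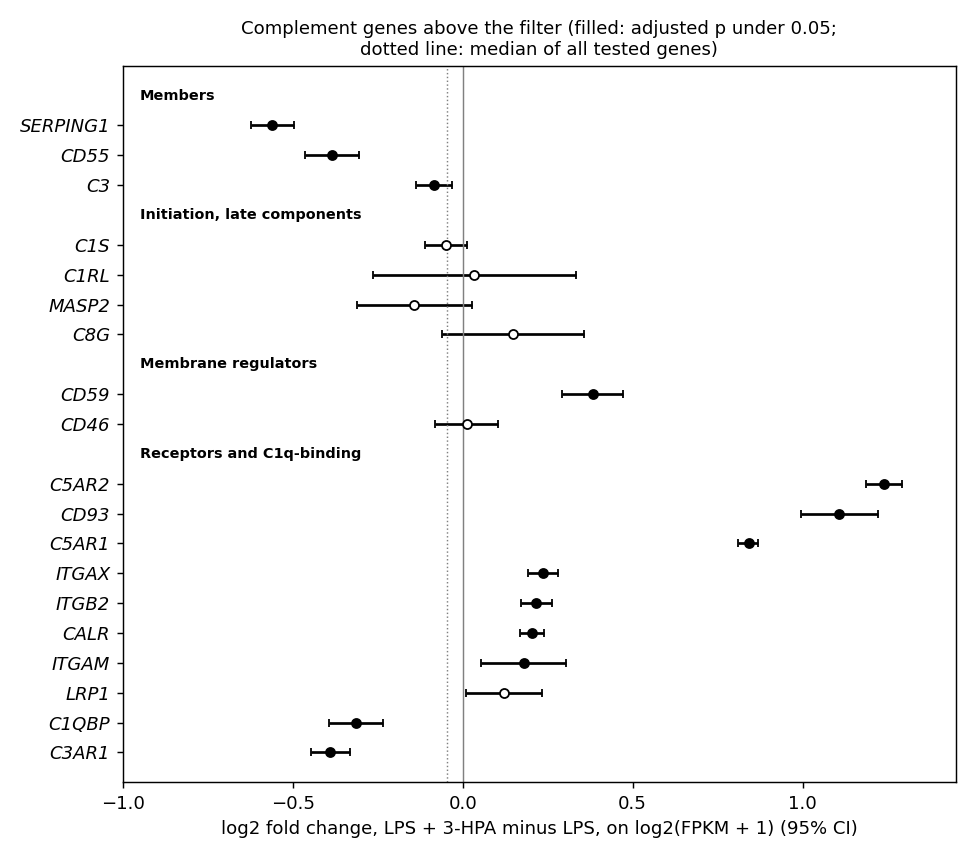
Log2 fold change (x axis, LPS + 3-HPA minus LPS on the log2(FPKM + 1) scale) with its 95% interval for every complement gene above the filter, grouped by role; filled points passed an adjusted p of 0.05 and the dotted line is the median of all tested genes. SERPING1 (-0.56) and CD55 (-0.385) lie to the left with C3AR1 and C1QBP, and C5AR2, CD93 and C5AR1 lie farthest to the right.

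Of the 10 receptors and C1q-binding proteins tested, 7 were higher and 2 lower, beside 15.7% higher and 28.0% lower among all genes tested. LRP1, named after its values were seen, did not pass (0.12, limma adjusted p = 0.0778). The median change of the 10 was 0.211, against -0.047 for all tested genes. LRP1, an endocytic receptor, passed upward in voom on the recovered reads without the filter (0.266, adjusted p = 0.0195). The receptors for the anaphylatoxins went apart. C5AR1, the main receptor for C5a on myeloid cells, averaged 274 ± 3.31 FPKM with 3-HPA and 153 ± 0.800 FPKM with LPS alone (0.84, SE 0.013, limma adjusted p = 2.21e-09). C5AR2, a second C5a receptor that does not couple to G proteins, averaged 30.7 ± 0.799 and 12.4 ± 0.166 FPKM with 3-HPA and with LPS alone (1.24, limma adjusted p = 6.35e-09). C3AR1, the receptor for C3a, was lower, at 37.2 ± 0.867 FPKM with 3-HPA and 49.0 ± 1.42 FPKM with LPS alone (-0.389, limma adjusted p = 2.77e-06). Within a library, C5AR1 stood at 7.16 to 7.53 times C3AR1 in FPKM with 3-HPA and at 3.00 to 3.18 times with LPS alone.

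CD93, once described as a C1q receptor, averaged 10.4 ± 0.176 FPKM with 3-HPA and 4.30 ± 0.385 FPKM with LPS alone (1.11, limma adjusted p = 2.59e-07). C1QBP, a mainly mitochondrial protein that also binds the C1q head, was lower, at 9.95 ± 0.432 and 12.6 ± 0.367 FPKM with 3-HPA and with LPS alone (-0.314, limma adjusted p = 9.13e-05). Of the chains of complement receptor 3, which takes up targets coated with iC3b, ITGB2 was higher (568 ± 13.8 against 489 ± 7.63 FPKM in LPS libraries; 0.22, limma adjusted p = 2.62e-05). ITGAM passed as well (0.18, limma adjusted p = 0.0263), but not with equal FPKM totals (0.148, adjusted p = 0.0536), without the filter (adjusted p = 0.065), with the replicate number as a block (adjusted p = 0.0595) or without LPS library 2 or 3 or LPS + 3-HPA library 2 or 3 (highest adjusted p = 0.0679).

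**Figure D4:**
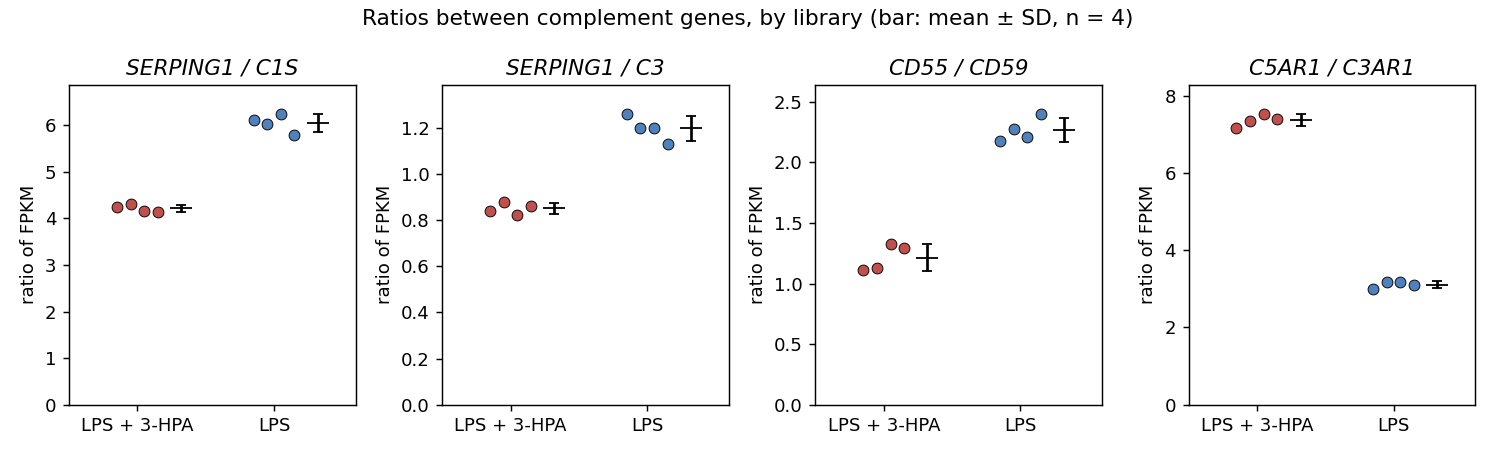
Ratio of the FPKM of paired complement genes in each library (y axes, from 0), LPS + 3-HPA left of LPS; bars are the mean ± SD. The ratios of SERPING1 to C1S, SERPING1 to C3 and CD55 to CD59 are lower in all 4 LPS + 3-HPA libraries (SERPING1 to C1S 4.13 to 4.31 against 5.78 to 6.24), and that of C5AR1 to C3AR1 is higher.

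Of 9 transcription factor genes known to act on complement genes, 5 were higher and 4 lower, beside 15.7% and 28.0% of all genes tested. SPI1, for the myeloid factor PU.1, was higher by 0.225 (limma adjusted p = 2.77e-06). Lower were the NF-κB subunit genes RELA (-0.204, limma adjusted p = 3.00e-05) and NFKB1 (-0.242, adjusted p = 3.31e-05), the acute-phase factor gene CEBPD (-0.281, adjusted p = 0.000225) and IRF8 (-0.171, adjusted p = 0.00333). Whether any of these bears on the complement genes was not tested.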

How the data were processed

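The tools listed are HISAT2 2.1.0, featureCounts and fastp 0.22.0, with the GRCh38 build, per the submitters' processing notes; the annotation release and strand setting were not stated there. The deposited values are FPKM per the labels, for 30233 genes in 8 libraries. Library totals and gene lengths were recovered by finding those that made each value a whole number of reads (within 0.01), for all but 3 genes; 13722 genes had the GENCODE 29 length, and elsewhere the shortest length that met this was taken, so counts of scarce genes are the smallest that the values allow. Totals were 35647756 to 41859879 reads; the limits given for counts of 0 cover counting error only, while the 95% intervals of fold changes rest on the spread between libraries. Under R 4.3.3, limma 3.58.1 fitted log2(FPKM + 1) by group with a mean-variance trend, in 12499 genes with at least 0.5 FPKM in at least 4 libraries, without a count model because the values are not counts. The step was tested on simulated data. Named were all 10 members, up to 5 called genes per role list with the largest change, 11 fixed genes, and the 3 profiles nearest the member that fell most. Members and lists were chosen with earlier results of these data known. No block was used, because the labels do not say what the replicate number marks. Same-numbered replicates did not deviate together. Alternatives covered pseudocount, filter, scaling, variance model, library weights, replicate block, recovered reads and leaving out each library; voom without a filter was added after seeing the data. Tables and plots used pandas 2.3.3, numpy 2.4.6 and matplotlib 3.10.9 under Python 3.11.15. No library was left out. Some genes of the transcription factor list are counted but not reported here by name.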

Additional observations from a re-analysis of the deposited data

Results flagged for a closer look

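In 3 of 53 sets of 4 libraries checked among the named genes, 1 library lay far from the other libraries of its group, by a gap to its nearest neighbour above Dixon's 95% critical share of the range; chance alone gives about 1 in 20. C1R was at 0.0786 FPKM in LPS + 3-HPA library 4, against 0.444 to 0.504 FPKM in the other libraries of that group, and LPS libraries 1 and 4 were low as well. C5AR1 was at 279 FPKM in LPS + 3-HPA library 2, where the other libraries of the group were at 272 to 273 FPKM. NFKB1 was at 12.1 FPKM in LPS + 3-HPA library 4 and at 11.7 FPKM in the other libraries of the group.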

How the results depend on the processing

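SERPING1 (-0.596 to -0.498, limma adjusted p at most 4.19e-05) and CD55 (-0.438 to -0.328, at most 0.000273) passed downward under all 20 alternatives, and C3 under 19 of 20; under TMM scaling the C3 change was -0.022 (limma adjusted p = 0.499). Leaving out 1 library at a time gave -0.588 to -0.545 for SERPING1, -0.403 to -0.360 for CD55 and -0.100 to -0.070 for C3, with a highest adjusted p of 0.0492 for C3. Of 17 other complement and transcription factor genes followed across the alternatives, none reversed a call; 2 lost it under some alternative, ITGAM among them, and 1 gained it (C1S). In voom without the filter, LRP1, C4A and C9 were called as well, so 13 other complement genes passed (10 higher and 3 lower). The main fit called 10 (8 and 2). Voom with the filter called 11 (9 and 2), as did TMM scaling, quantile normalisation and the fit without a mean-variance trend. None of the 7 members below the filter passed in the 2 fits that held them (limma without the filter, unadjusted p under 0.05 for C1QB and C1QC, and voom without the filter, for C1QB). The share of called genes that were higher was 36.0% as deposited, 28.5% with equal FPKM totals, 51.3% with TMM and 46.4% after quantile normalisation. The labels' replicate numbers shared no deviation (correlations -0.023 to 0.089), and the replicate block called 5074 genes against 5462, with SERPING1 at -0.560, CD55 at -0.385 and C3 at -0.084, all still called. Low counts limit what can be said of C1QA, C2, CFB, CFP and CFD, with at most 34 reads in any library. Whether depth or uncounted reads lay behind these counts was not tested.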
